A study of Mus musculus with 6 samples.

Results

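The genes that encode the proteins of the cytosolic ribosome were followed in the hippocampus of mice that had lost the acetyltransferase p300 in excitatory forebrain neurons. Members were chosen by name: protein-coding genes whose symbol is Rpl or Rps followed by a digit, with the stalk genes Rplp0, Rplp1 and Rplp2 and the laminin receptor gene Rpsa, and without the Rps6k kinases and symbols with -ps. The rule found 86 of the 55471 genes in the count table, 52 named for the large and 34 for the small subunit. It also took in paralogs with a restricted or minor role (Rpl3l, Rpl7l1, Rpl10l, Rpl22l1, Rpl36al, Rpl39l, Rps27l, Rps27rt) and Rps19bp1, which encodes a binding partner of a ribosomal protein and not a ribosomal protein.

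Total RNA from 6 mice, labelled C57BL/6 and 3 to 6 months old (male and C57BL/6J in the study's methods), had been sequenced, with 1 library per mouse. The p300-ifKO group (Ep300_flox with Camk2a_creERT2, n = 3) carried floxed Ep300 alleles and a tamoxifen-activated Cre driven by Camk2a, and the control group (n = 3) consisted of littermates. Both groups received 5 administrations of tamoxifen (20 mg/ml). The protocol describes the controls as lacking creERT2, whereas the sample description of the controls names Camk2a_creERT2. Esr1, given below, was high in the p300-ifKO mice only, which goes with the protocol. The paper describes higher Esr1 as a feature of mice with this driver. The groups thus differed in the driver transgene as well as in Ep300, and the effects of these cannot be told apart. The driver is active in excitatory forebrain neurons only, so the glia, vessels and interneurons in the same tissue kept an intact Ep300. In bulk tissue, fewer cells of a type and less RNA per cell cannot be told apart.

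The 6 libraries held between 23151568 and 28433823 counts. The targeted gene Ep300 stood at 1545, 1474 and 2334 normalized counts in the controls and at 478, 1350 and 912 in the p300-ifKO mice, without overlap between the groups (log2 fold change -0.97 ± 0.33 SE, adjusted p = 0.99 in DESeq2). The log2 fold change was -0.66 without p300-ifKO 1 and -1.36 without p300-ifKO 2. With the length offsets and the surrogate variable described below, it was -0.80 and -0.49. Esr1, whose human homolog supplies the ligand-binding part of creERT2, read 109, 87.2 and 108 in the controls and 4217, 2416 and 2868 in the p300-ifKO mice (log2 fold change 4.96 ± 0.24 SE, adjusted p = 4.47e-92 in DESeq2), so that this check followed the labels. Each of the 8 excitatory neuron markers was detected. The libraries differed in how their counts depended on gene length, p300-ifKO 1 most of all, as described below for the members.

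A ribosome is built from ribosomal RNA and usually a single copy of each ribosomal protein, so cells make these proteins in matched amounts. Many ribosomal protein messages start with a terminal oligopyrimidine tract (TOP), a C followed by a run of C and T at the cap, through which mTOR and LARP1 set their translation together. The genes are short, highly expressed and have left large numbers of processed pseudogenes in mammalian genomes, which makes them hard to count with short reads. In neurons they are known for local translation in dendrites and axons as well as in the cell body.

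The start sites show how much of this shared feature the annotation holds. RefSeq promoters (GRCm38.p6) were found for 66 of the 86 members, 10 of them with several start sites. A C followed by at least 4 letters C or T, read on the coding strand from the first transcribed base, stood at an annotated start of 14 of the 66 (21.2%), against 2.96% of 26959 other genes. Allowing the tract to begin within 5 bases on either side gave 30 of 66 (45.5%), against 21.1% of the other genes. The tract was thus more frequent at member starts by share, and most members have none at the annotated base. The windows below run from 10 bases before to 20 bases from the start, with the tract in capitals. They were chosen because their genes recur in the results. Rps6 and Rps21 were among the members with the highest fold changes, Rps10 and Rps15a among those with the lowest, Rplp2 belongs to the stalk, and Rps27 and Rps27rt are a gene and its copy. Rpl31 and Rpl5, also among the highest and the lowest, are shown as members without a tract at the annotated base and so have no capitals.
Rps6, chr4:86857348-86857377, minus strand: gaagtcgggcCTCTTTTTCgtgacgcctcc
Rps21, chr2:180257369-180257398, plus strand: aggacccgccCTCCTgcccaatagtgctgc
Rplp2, chr7:141447641-141447670, plus strand: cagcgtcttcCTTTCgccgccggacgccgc
Rps10, chr17:27635225-27635254, minus strand: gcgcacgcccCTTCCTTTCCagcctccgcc
Rps15a, chr7:118116128-118116157, minus strand: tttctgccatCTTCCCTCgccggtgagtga
Rps27, chr3:90213629-90213658, minus strand: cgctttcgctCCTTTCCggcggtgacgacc
Rps27rt, chr9:114982720-114982749, minus strand: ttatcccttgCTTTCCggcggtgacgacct
Rpl31, chr1:39367841-39367870, plus strand: tcctcgcctccccgtgacccggaagttgta
Rpl5, chr5:107900518-107900547, plus strand: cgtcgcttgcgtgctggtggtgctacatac

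The tract runs for 9 bases in Rps6, 5 in Rps21 and Rplp2, 10 in Rps10 and 8 in Rps15a. Rpl4, Rpl5, Rpl9, Rpl31, Rplp0 and Rps15 have none at the annotated base, and of these Rpl31 has one that begins within 5 bases of it. Genes with high and with low fold changes thus occur both with and without the tract at the annotated base. These matches describe the annotated window and are not tests of TOP regulation.

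The question for this family was whether its expression differed between p300-ifKO and control hippocampus. No member passed the threshold (0 of 85 tested at an adjusted p under 0.05, DESeq2), where 0.0061% of all 32773 genes tested did. The point estimates leaned one way: 79 members were higher and 6 lower in p300-ifKO, whereas 45.3% of all genes were higher. The median log2 fold change of the members was 0.34 (quartiles 0.20 and 0.46), and that of all genes tested was -0.05. At an unadjusted p under 0.05, DESeq2 held 7 members, all higher (0.772% of all genes were higher at that level). The count for other genes of like transcript length is given below. The quasi-likelihood test of edgeR held 0 members at an adjusted p under 0.05 (0.0117% of all genes) and 0 at an unadjusted one, with 1.35% of all genes higher at the unadjusted level. Without its filter on low counts edgeR held 26 members at the unadjusted level, all higher (2.44% of all genes), and DESeq2 with TMM factors held 10, all higher (0.891%), again with 0 called. The smallest adjusted p among the members was 0.99.

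The 95% intervals were wide compared with these estimates. The median standard error was 0.26 on the log2 scale, 78 of the 85 intervals included 0, and 60 lay below a 2-fold rise. The median log2 fold change was 0.31 for the 51 tested genes of the large subunit (47 higher) and 0.37 for the 34 of the small subunit (32 higher).

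Individual libraries carried the pattern. Members took 0.318%, 0.306% and 0.274% of all counts in control 1, 2 and 3, and 0.529%, 0.278% and 0.365% in p300-ifKO 1, 2 and 3. The range within the p300-ifKO group enclosed 2 of the 3 control values, and only control 3 lay below it. As log2 ratios to the mean of the 6 libraries, the medians of the 82 members with a mean normalized count of at least 10 were -0.08, -0.08 and -0.28 in the controls and 0.62, -0.25 and 0.09 in the p300-ifKO mice. The library p300-ifKO 1 was the highest of the 6 for 76 of the 82 members, while p300-ifKO 2 was the lowest for 28 and control 3 for 41. The first principal component of these ratios took 86.5% of their variance, in a set where p300-ifKO 1 stood apart for most members. This share was not computed for other genes, so it does not show that the members moved as a block of their own.

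**Figure D1:**
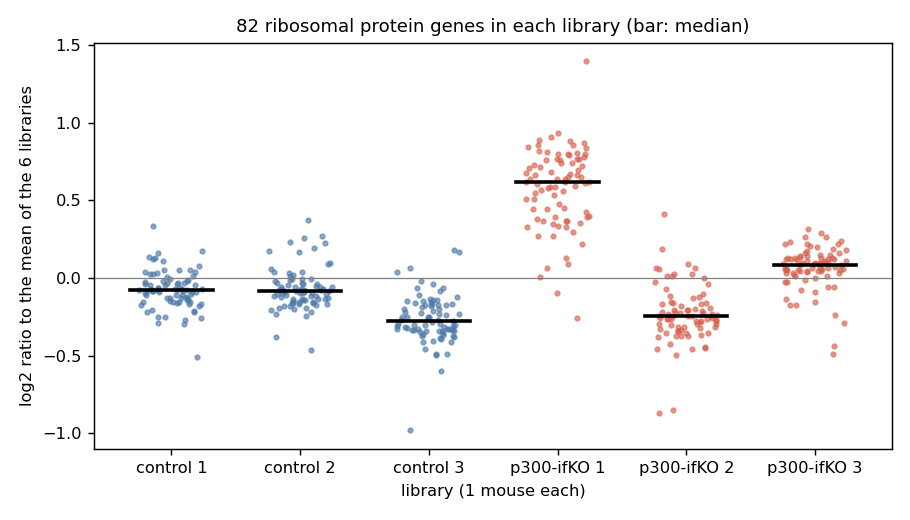
Log2 ratio of 82 ribosomal protein genes (points) to the mean of the 6 libraries, by library, with the median as a bar. The points of p300-ifKO 1 lie mostly above all others (median 0.62), and those of p300-ifKO 2 (median -0.25) overlap those of control 3 (median -0.28).

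Leaving out libraries gave the same picture in numbers. Without p300-ifKO 1 the median log2 fold change fell to 0.06, with 55 members higher and 30 lower (47.2% of all genes were higher). In that DESeq2 fit 0 members had an adjusted p under 0.05 (0.0062% of all genes), and 0 an unadjusted one (0.143% of all genes, higher). Without p300-ifKO 2 it rose to 0.52, and 29 members passed, all higher, in a fit that called 2.88% of all genes and 1.5% as higher. Leaving out p300-ifKO 3 or any 1 control kept the median between 0.28 and 0.40 and the number called at 0. Most of the size of the median thus came with p300-ifKO 1, and members passed only in fits without p300-ifKO 2.

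Transcript length separated the same libraries. The members are short: their principal transcripts have a median of 802 bases (345 to 5179), against 2742 bases for other genes with a mean count above 10. Across 14514 protein-coding genes that are no members, Spearman's rho between transcript length and the ratio of a library to the mean was 0.30, 0.23 and 0.54 in the controls and -0.65, 0.56 and -0.37 in p300-ifKO 1, 2 and 3. These correlations are across genes, which are not independent replicates. Short genes were therefore high in p300-ifKO 1 and 3 and low in p300-ifKO 2 and the controls, the order in which the members stood. Among other protein-coding genes with a transcript of 750 to 1000 bases (457 genes), the median ratio in p300-ifKO 1 was 0.55, and among the 22 members of that length it was 0.61. Among genes of 1500 to 2000 bases it was 0.28 for 1719 other genes and 0.55 for 6 members.

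**Figure D2:**
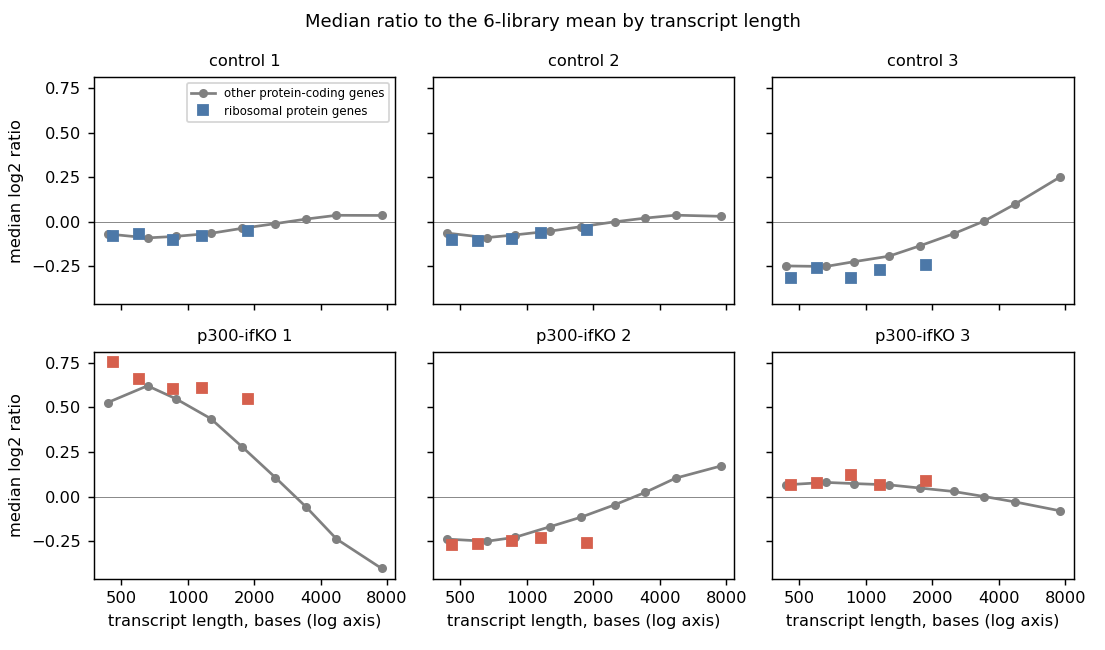
Median log2 ratio to the mean of the 6 libraries (vertical axis) against transcript length (log axis, bases), 1 panel per library, for other protein-coding genes (grey line) and ribosomal protein genes (squares, bins of at least 5 genes). In p300-ifKO 1 the grey line falls from 0.62 at short to -0.40 at long transcripts, and the squares lie on or above it. In p300-ifKO 2 and control 3 the line rises.

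The amount of the members' shift that this trend covered depended on the genes used to draw it. A smooth of each library's ratios on exonic length and GC content over 16972 genes of all kinds predicted 0.21 for the median member in p300-ifKO 1 and left 0.42. The values left for p300-ifKO 2 and 3 were -0.17 and 0.05, and for the controls -0.06, -0.05 and -0.23. When the smooth was drawn on the principal transcripts of protein-coding genes alone, it predicted 0.46 for p300-ifKO 1 and left 0.21. The values left were then -0.07 and 0.01 in p300-ifKO 2 and 3 and -0.01, -0.01 and -0.13 in the controls. After this removal p300-ifKO 1 was still the highest library for 53 of 82 members, compared with 67 after the first and 76 before any.

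With the trend entered into DESeq2 as an offset per gene and library, the median log2 fold change of the members was 0.22 (exonic length), 0.20 (principal transcript) and 0.11 (protein-coding genes alone), and 0 members passed in each, where 0.0061% of all genes did. The members above 0 numbered 74, 73 and 65 of 85, where 48.9%, 49.8% and 46.3% of all genes were above 0. At an unadjusted p under 0.05 in DESeq2, 11, 14 and 1 members were higher, where 0.87%, 0.94% and 0.665% of all genes were. The 882 other protein-coding genes with transcripts between 562.5 and 1094 bases, the middle range of the members, had a median log2 fold change of 0.28 in the main test, with 743 higher and 0 called. This median lies close to the 0.34 of the members in the same test. With the principal-transcript offsets it was 0.12, against 0.20 for the members. With the offsets from protein-coding genes it was 0.036, against 0.11, with 522 of the 882 and 65 of the 85 members above 0. In the main test 42 of the 882 were higher and 1 lower at an unadjusted p under 0.05 (DESeq2). Of the 85 members 7 were higher and 0 lower at that level.

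Without p300-ifKO 2, the 29 members called became 13 with the principal-transcript offsets, all among the 29 (0.622% of all genes were called higher there), and 1 with the offsets from protein-coding genes (0.44%). A surrogate variable estimated from all genes took the median to -0.024, with 35 members higher and 50 lower (47.3% of all genes were higher) and 0 called (0.00915% of all genes). The length trend and the group cannot be told apart in p300-ifKO 1, which is the library with the strongest trend.

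**Figure D3:**
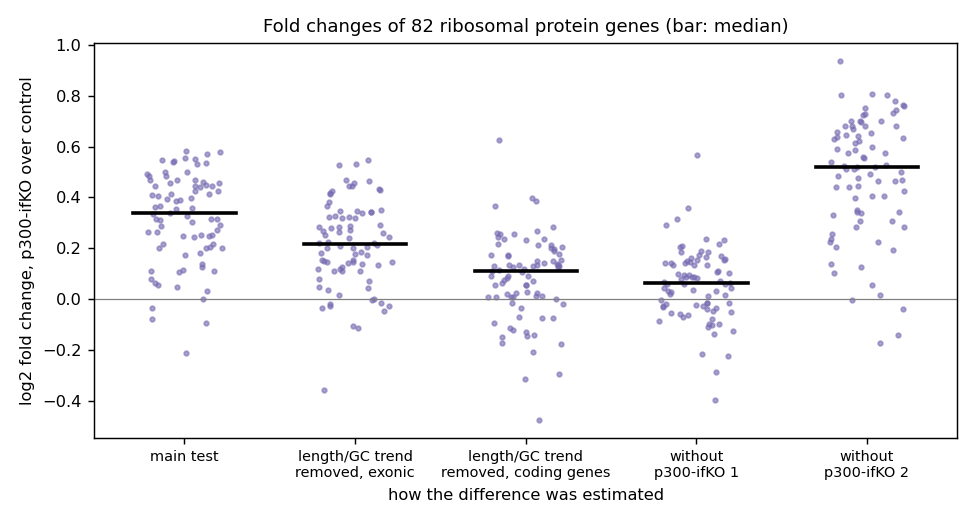
Log2 fold change (p300-ifKO over control) of 82 ribosomal protein genes under 5 estimates, with the median as a bar. The median lies at 0.34 in the main test over all 85 tested members, falls once the length and GC trend is removed or p300-ifKO 1 is left out, and is highest without p300-ifKO 2.

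The members with the highest levels per kilobase of transcript were Rplp1, Rps15 and Rpl4, at 8917, 8147 and 7393 normalized counts per kilobase. Rplp1 and its partners Rplp0 and Rplp2 form the stalk that recruits translation factors with GTPase activity to the ribosome. Rplp1 read 3958, 3861 and 3385 normalized counts in the controls and 7515, 3419 and 4559 in the p300-ifKO mice. The log2 fold change was 0.47 ± 0.26 (SE, adjusted p = 0.99, DESeq2). Rplp0 read 1748, 1745 and 1561 against 2894, 1546 and 1933 (0.33 ± 0.23), and Rplp2 read 549, 615 and 491 against 996, 551 and 723 (0.46 ± 0.23). In all 3 stalk genes p300-ifKO 1 was highest and the other p300-ifKO values spread around the controls.

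Rps15, a protein of the head of the small subunit, had 3801, 3520 and 3109 counts in the controls and 6665, 3157 and 4189 in the p300-ifKO mice, again with p300-ifKO 1 highest and p300-ifKO 2 inside the controls. Rpl4, a large-subunit protein that lines the exit tunnel, had 11040, 10800 and 9392 against 15923, 9424 and 11640 (log2 fold change 0.24 ± 0.20 SE). Its p300-ifKO 2 value lay just above the lowest control.

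The 4 highest log2 fold changes among members with a mean of at least 10 were those of Rpl36, Rps21, Rps6 and Rpl31. Rpl36 read 56.7, 69.3 and 44.9 counts in the controls and 115, 71.6 and 70.4 in the p300-ifKO mice (0.58 ± 0.32 SE, adjusted p = 0.99, DESeq2). The groups did not overlap, but p300-ifKO 2 and 3 exceeded control 2 by little. Rps21 read 1301, 1236 and 1019 against 2638, 1188 and 1488 (0.58 ± 0.28 SE), with p300-ifKO 2 inside the controls. Rps6, the substrate of S6 kinases and a common readout of mTOR activity as a phosphoprotein, read 45.7, 62.0 and 26.5 against 66.6, 70.7 and 61.7 (0.57 ± 0.35 SE).

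Rps6 was the only one of these 4 whose highest value was not in p300-ifKO 1, and its log2 fold change without that library was 0.57. Control 2 lay at the level of p300-ifKO 3, so the groups overlapped. Rpl31 read 60.7, 83.0 and 76.5 against 151, 68.9 and 104 (0.56 ± 0.33 SE), which without p300-ifKO 1 was 0.24.

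The 4 lowest were Rps10, Rpl9, Rpl5 and Rps15a. Rps10 read 62.6, 96.7 and 83.7 in the controls and 69.8, 66.3 and 73.3 in the p300-ifKO mice (log2 fold change -0.21 ± 0.27 SE). Of its transcript, 53.6% overlaps another annotated gene on the same strand, where reads could not be assigned. Rpl5, which with Rpl11 and the 5S ribosomal RNA binds MDM2 and stabilises p53 when ribosome assembly is disturbed, read 148, 176 and 129 against 121, 155 and 151 (-0.08 ± 0.22 SE). Rpl9 had -0.09 ± 0.22 and Rpl11 had 0.25 ± 0.30, both with intervals that include 0.

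Rps15a was the most precisely measured member, at 2258, 2262 and 2173 counts in the controls and 2214, 2207 and 2120 in the p300-ifKO mice. The fold change came to -0.03 ± 0.10 SE, with a 95% interval on the log2 scale from -0.23 to 0.16. Rpl15 (chosen after its values were seen) was as flat, with -0.00043 ± 0.12 SE. In p300-ifKO 1 their log2 ratios to the mean of the 6 libraries were 0.0057 (Rps15a) and 0.067 (Rpl15). The median of the 82 members was 0.62 there, and 80 were above 0. Rpl5 (-0.26) and Rps10 (-0.094) were below 0. The principal transcript of Rps15a is 5179 bases long in the annotation, by far the longest of a member, so that its level per kilobase (426) is understated, and its length offset misplaced, if shorter forms prevail.

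**Figure D4:**
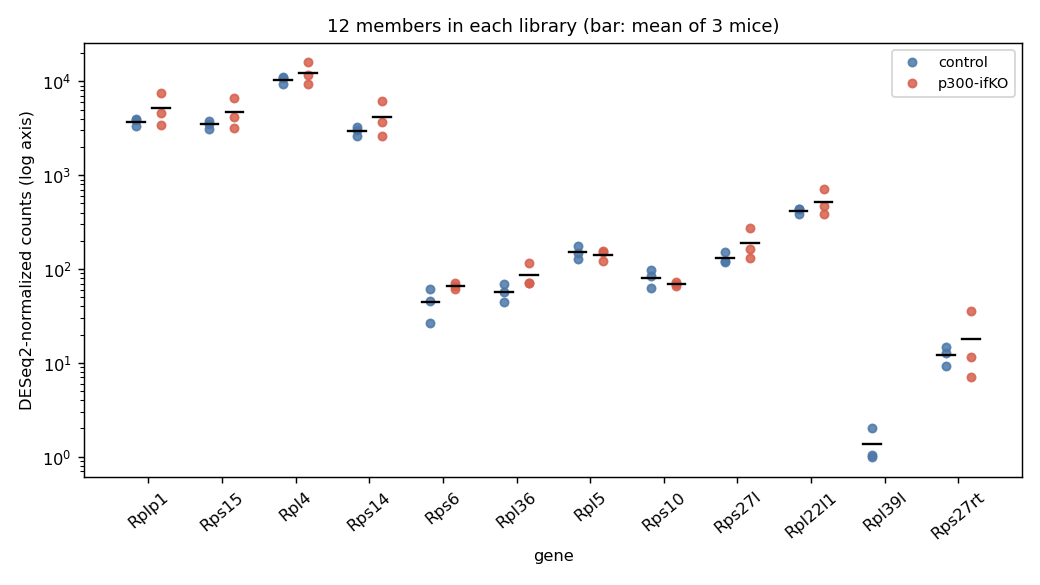
DESeq2-normalized counts (log axis) of 12 members in each of the 3 control (blue) and 3 p300-ifKO (red) mice, with the mean of each group as a bar. Values of 0 (Rpl39l in all 3 p300-ifKO mice) cannot be drawn on a log axis. Rpl36 and Rpl39l are the 2 shown whose groups do not overlap.

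Genes with a disease or neighbour link followed the libraries in the same way. Rps19, the gene most often mutated in Diamond-Blackfan anaemia, read 1094, 1065 and 914 in the controls and 2136, 850 and 1241 in the p300-ifKO mice (0.46 ± 0.29 SE). Rps14, which lies on the same chromosome as Camk2a, the gene whose promoter drives the Cre transgene, with other genes between them, read 3272, 3064 and 2647 against 6199, 2635 and 3724 (0.48 ± 0.28 SE). Rpsa, which is a component of the small subunit and is also known as a laminin receptor, read 106, 109 and 88.8 against 175, 86.6 and 129 (0.36 ± 0.29 SE). In all 3 genes p300-ifKO 2 was the lowest of the 6 libraries and p300-ifKO 1 the highest.

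The groups did not overlap in 6 members that were higher (Rpl7l1, Rpl10, Rpl17, Rpl19, Rpl36 and Rps25; 3.21% of all genes were higher without overlap) and in 1 that was lower (Rpl39l; 3.42%). Apart from Rpl10, Rpl36 and Rpl39l, these names were chosen after their values were seen. Rpl10, an X-linked protein of the large subunit needed for subunit joining, had 116, 118 and 114 counts in the controls and 136, 130 and 134 in the p300-ifKO mice. The spread within each group was small (116 ± 1.70 and 133 ± 3.29, mean ± SD, n = 3), and the log2 fold change was 0.20 ± 0.19 (SE, adjusted p = 0.99, DESeq2). The standard error is larger than the replicate spread because it also holds the counting error at these counts. In addition, DESeq2 draws the dispersion of a gene toward that of genes with like counts. With offsets from protein-coding genes, the log2 fold change of Rpl10 was 0.00072.

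The 7 members at an unadjusted p under 0.05 in DESeq2 were Rpl8, Rpl32, Rpl34, Rplp2, Rps3, Rps18 and Rps21, with log2 fold changes from 0.46 to 0.58. All but Rplp2 and Rps21 were named after their values were seen. Rps3, a protein of the mRNA entry channel that also takes part in DNA repair, read 6092, 6189 and 5402 in the controls and 11352, 5648 and 7492 in the p300-ifKO mice. Rpl8, near the peptidyl transferase centre, read 5261, 5117 and 4528 against 9801, 4852 and 6310. In both, p300-ifKO 2 fell within the controls, and in edgeR the unadjusted p was 0.076 for Rps3 and 0.069 for Rpl8.

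Several members are paralogs of another. Rpl22 and Rpl22l1, of which the first is known to restrain the second, read 2528, 2589 and 2204 against 3323, 2394 and 2699, and 438, 437 and 387 against 710, 390 and 471. Their log2 fold changes were 0.20 ± 0.16 and 0.31 ± 0.23 (SE). Per kilobase Rpl22 stood at 1279 and Rpl22l1 at 855 normalized counts. Both pointed upward by less than their error allowed to call.

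Rpl39l and Rpl10l, known for expression in the testis, were at the limit of detection, while their broad partners were not. Rpl39l had 4 counts in all, all in controls, so that no fold is given, and Rpl10l had 0 counts in every library. A count of 0 allows up to 3 counts, or 0.106 to 0.130 CPM at these depths. Rpl39 read 318, 296 and 237 in the controls and 581, 268 and 392 in the p300-ifKO mice (0.54 ± 0.28 SE). Rpl3l, known from heart and skeletal muscle, had 82 counts in total, against 1015 for Rpl3, whose log2 fold change was 0.05 ± 0.21. The copied share was 0% for Rpl3l and 85.6% for Rpl3, which these totals do not allow for.

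Rpl36a and Rpl36al had log2 fold changes of 0.06 ± 0.24 and 0.31 ± 0.49 (SE). Rpl36al overlaps another gene on the same strand over 63.1% of its transcript. Rps4x, X-linked in the mouse, read 939, 886 and 863 against 1381, 773 and 974 (0.22 ± 0.22 SE), and its relative Rps4l is annotated as a pseudogene and is no member.

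The Rps27 genes share coding sequence to different degrees. Rps27rt on chromosome 9 (chr9:114982366-114982739) has a coding sequence identical to that of Rps27 on chromosome 3 (chr3:90212522-90213651), with 0 differences in 252 bases, whereas Rps27l (chr9:66946086-66949516) differs from it at 60 bases (76.2% identity). The sequences (GENCODE M21 annotation of GRCm38, without the stop codon) are printed because reads inside identical sequence can have more than 1 placement. Capitals in Rps27l mark the bases that differ from Rps27.
Rps27: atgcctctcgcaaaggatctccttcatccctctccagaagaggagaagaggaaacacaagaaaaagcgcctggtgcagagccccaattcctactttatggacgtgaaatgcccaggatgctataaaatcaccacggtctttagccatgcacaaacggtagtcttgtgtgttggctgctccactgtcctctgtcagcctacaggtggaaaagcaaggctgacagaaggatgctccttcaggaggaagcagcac
Rps27rt: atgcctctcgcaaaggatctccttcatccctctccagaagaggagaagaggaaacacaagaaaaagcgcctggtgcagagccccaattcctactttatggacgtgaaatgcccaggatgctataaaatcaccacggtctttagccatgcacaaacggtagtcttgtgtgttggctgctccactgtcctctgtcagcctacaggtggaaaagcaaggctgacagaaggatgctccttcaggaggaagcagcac
Rps27l: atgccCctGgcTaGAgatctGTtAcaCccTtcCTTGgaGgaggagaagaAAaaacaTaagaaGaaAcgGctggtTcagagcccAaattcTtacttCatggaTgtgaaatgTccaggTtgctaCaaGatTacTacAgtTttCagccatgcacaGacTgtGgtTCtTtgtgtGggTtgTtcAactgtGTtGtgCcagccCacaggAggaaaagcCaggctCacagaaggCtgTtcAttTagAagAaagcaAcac

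A stretch of 50 bases wholly inside the coding part of Rps27 also occurs in Rps27rt. The study's filter on mapping quality drops reads with several equal placements. Whether reads across the exon junctions of Rps27 were placed equally at both genes was not examined. Of the 50-base stretches of the Rps27 transcript, 98.7% have an exact copy in a gene elsewhere, the highest share of any member, against 91.1% for Rps27rt and 22.4% for Rps27l. Their deposited totals over the 6 libraries were 196, 89 and 961 counts, so that the p53-responsive paralog Rps27l was counted more often than Rps27 itself. Rps27 read 26.9, 31.5 and 33.7 in the controls and 44.0, 26.5 and 33.7 in the p300-ifKO mice, Rps27rt 14.9, 12.6 and 9.18 against 35.4, 7.07 and 11.6, and Rps27l 150, 118 and 122 against 276, 133 and 165. All 3 were highest in p300-ifKO 1. How many reads of Rps27 the filter removed was not measured.

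Copied stretches were found across the family. Of the 86 members, 82 had at least 1 stretch of 50 bases with an exact copy in the transcripts of a gene elsewhere, in each case a pseudogene among others, and the median copied share was 48.5%. Rpl3l, Rpl39l and Rps19bp1 were among the members with none. In all, 1104 pseudogenes held such a stretch, up to 119 for a single member (Rpl7a). Deposited levels spanned a wide range. Besides Rpl10l and Rpl39l, the lowest totals over all 6 libraries were the 56, 60 and 62 counts of Rps29, Rpl23a and Rpl38, while Rpl4 had 68148. The levels of single members are therefore given here without a ranking beyond the 3 highest.

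Per kilobase, the median level was 426 normalized counts for the 11 members with under 10% of stretches copied, 663 for the 35 with 10% to 50%, and 296 for the 40 with over 50%. Spearman's rho between copied share and level was -0.24 over 85 members. Leaving out the minor paralogs Rpl3l, Rpl10l and Rpl39l and the gene Rps19bp1 gave -0.34 over 82. These are descriptions over members that share libraries. Rps29 stood at 23.7 per kilobase with 35.8% copied. The part of copies in these levels was not tested.

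**Figure D5:**
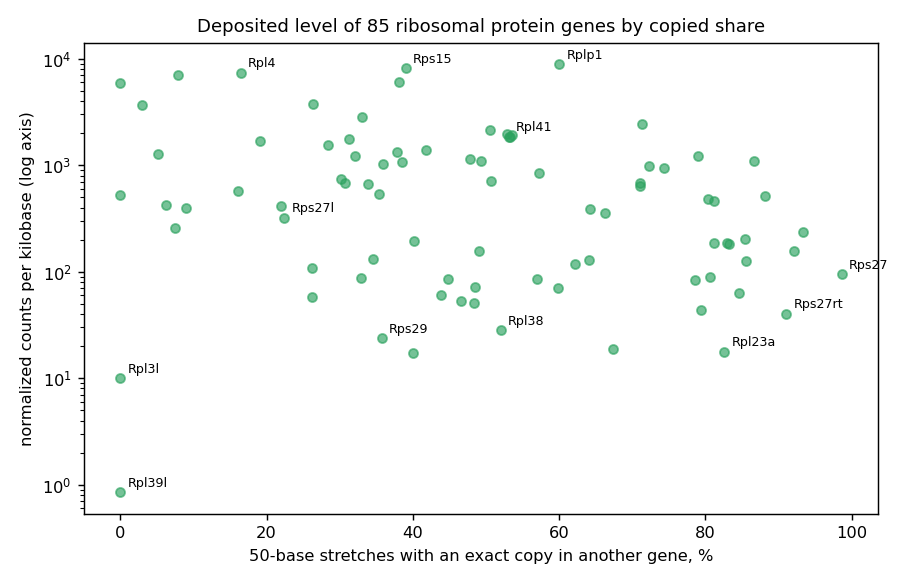
Level of 85 ribosomal protein genes (normalized counts per kilobase of transcript, log axis) against the percent of their 50-base stretches with an exact copy in another gene. Levels spread widely at like copied shares, and Rps27 lies at the far right (98.7%).

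By copied share the median fold change of the main test moved little. The median log2 fold change was 0.35, 0.36 and 0.31 in the 3 classes of copied share, in rising order. Over the 82 members with a mean of at least 10, rho with copied share was -0.20 for this fold change. With the principal-transcript offsets it was -0.26, and -0.36 for the value left in p300-ifKO 1 after that trend. The medians left there were 0.38, 0.39 and 0.31 in the same classes. Counts placed on the 1104 pseudogenes amounted to 2.37% to 2.81% of the counts of the members in each library. Adding the counts of 298 named -ps genes to their parents gave a median of 0.33 with 0 members called. All named -ps genes held only 533 to 941 counts per library, against 66946 to 122438 for the members, so the median could move little. Reads with several equal placements are dropped by the mapping filter and are not in these counts. The addition therefore cannot decide the effect of copies. Of the 1104 pseudogenes 769 were tested, with a median log2 fold change of 0.07 and 0 called. The 37 with a mean of at least 10 had a median of 0.39, with 31 higher. The median ratios of the 37 were -0.08, -0.16 and -0.12 in the controls and 0.72, -0.24 and -0.07 in the p300-ifKO mice. Again p300-ifKO 1 stood highest.

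Other genes of the translation machinery and other short-transcript families were set beside the members. Fau, which encodes a ribosomal protein fused to a ubiquitin-like sequence and falls outside the name rule, had a log2 fold change of 0.80 ± 0.52 (SE). Fau read 10.9, 20.0 and 15.3 in the controls and 41.9, 17.7 and 21.2 in the p300-ifKO mice. Of 21 translation factors and other genes of the TOP class, 17 were higher, with a median of 0.19 and 0 called. Among them Eef1a1 and Eef2, the elongation factors, had 0.15 ± 0.17 and 0.06 ± 0.11.

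Of 36 genes for ribosome biogenesis and RNA polymerase I, 30 were higher (median 0.13, 0 called), and Ncl, which encodes nucleolin, had 0.06 ± 0.10 (SE). Of 14 genes in the control of TOP messages and MYC, 4 were higher and 10 lower (median -0.07, 0 called), with Myc at -0.05 ± 0.20. All 7 host genes of small nucleolar RNAs were higher (median 0.36, 0 called). The median transcript was 605 bases for the host genes, 1794 for the TOP class, 2668 for biogenesis and 4788 for the TOP control list, and the medians of the fold changes fell in that order.

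Families outside cytosolic translation stood where the ribosomal proteins did. Of 80 tested genes of oxidative phosphorylation 79 were higher, with a median log2 fold change of 0.37. Of 78 genes of the mitochondrial ribosome 74 were higher (0.27), and of 40 proteasome genes 37 were higher (0.26), with 0 called in each list. Without p300-ifKO 1 the medians were 0.08, 0.04 and 0.07, beside 0.06 for the cytosolic ribosomal proteins.

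Markers of some other cell types also had positive median fold changes, but not all of these lists followed the members library by library. Of 9 microglia markers 7 were higher, with a median log2 fold change of 0.39 and a median transcript of 1203 bases. Their summed level ran from 8819 to 9574 normalized counts in the controls and from 9613 to 12709 in the p300-ifKO mice, with p300-ifKO 1 highest. The 8 markers of excitatory neurons had a median of -0.01. Their summed level ran from 156203 to 173714 in the controls and from 144730 to 180267 in the p300-ifKO mice, with p300-ifKO 1 lowest. No marker of any list had a mean below 1. Of 7 oligodendrocyte markers 6 were higher (median 0.16), with summed levels of 107212 to 145256 in the controls and 115877 to 148638 in the p300-ifKO mice, p300-ifKO 1 again highest. The sum of 145256 was that of control 3, the lowest library for 41 of the 82 members. Of 6 choroid plexus markers 5 were higher (median 0.36), with sums of 749 to 3777 against 1390 to 5479, highest in p300-ifKO 3. Ttr alone read 2804 in control 3 and 4488 in p300-ifKO 3. The median log2 ratio of the choroid plexus markers was -0.44 in p300-ifKO 1 and 0.51 in control 3, where the members had 0.62 and -0.28. The median log2 fold changes for interneurons, astrocytes, endothelium and blood were -0.06, -0.04, -0.11 and -0.18. The part of these cells in the members' values was not tested.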

How the data were processed

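Hippocampal RNA of 6 mice was sequenced as single-end reads of 50 bases. The authors trimmed reads (Trim Galore 0.6.4), checked them (FastQC 0.11.8), aligned them with STAR 2.6.1 to mm10/GRCm38, kept those with a mapping quality above 10, which drops reads with several equal placements, and deposited unnormalized counts per Ensembl gene over exons. Whether counting used strand is not given in the sources used here, so overlapping and antisense genes cannot be separated. Each library is 1 mouse, and p-values measure the spread between 3 mice a group.

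Gene symbols, lengths and transcripts came from GENCODE M21, which matched 55230 of the 55471 genes (99.57%). Counts were tested in DESeq2 1.42.0 (R 4.3.3, Wald test, two-sided, Benjamini-Hochberg over all genes, threshold 0.05), the tool of the study, without covariates. Fold changes and normalized counts are those of DESeq2. Alternatives were edgeR 4.0.16 (quasi-likelihood), limma-voom 3.58.1, other size factors and filters, the replicate number as a block, a surrogate variable (sva 3.50.0), offsets from a smooth of each library's log2 ratio (pseudocount 0.5) on length and GC (mgcv 1.9.3), added pseudogene counts and leave-one-out. The smooth left the members out. The fits were tested on simulated data. A stretch was called copied where 50 bases of a member's principal transcript occurred exactly, on either strand, in the transcripts of a gene elsewhere.

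The members and lists were chosen with earlier results of these data known. Named with values were the 4 highest and 4 lowest fold changes at a mean of at least 10, the 3 highest levels per kilobase, the extremes of copied share, the stalk genes, paralog pairs, Rps14, Rpl5, Rpl11, Rps19, Rpsa and Rps6, and members called in any fit with all libraries (0). Some genes that this rule names are not reported here. The main test did not pair same-numbered replicates, and the labels do not say whether these were matched mice. Their deviations from the group means correlated at 0.27, -0.28 and 0.14 for numbers 1, 2 and 3. Such correlations across genes cannot decide whether mice were matched. Intervals at 95% rest on the DESeq2 standard errors, which hold the spread between the mice of a group. The limit of 3 counts covers counting error only.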

Additional observations from a re-analysis of the deposited data

How the results depend on the processing

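The median log2 fold change of the members (0.34) stayed positive under 11 of the 12 alternatives with all libraries first set out, between 0.20 and 0.35, and 0 members were called under each. The exception was the surrogate variable, which gave -0.024, and -0.024 again when estimated without the members, with 0 called. The fit with the replicate block gave a median of 0.29 and 0 called, and whether its numbers pair the mice is not known. Leaving out 1 library at a time gave medians from 0.06 to 0.52 and 0 to 29 members called, with 29 only without p300-ifKO 2. With offsets on the principal transcript these ranges were 0.05 to 0.29 and 0 to 13, and with offsets from protein-coding genes, run without p300-ifKO 1 or 2 alone, 0.015 to 0.17 and 0 to 1. The variants of the offsets (protein-coding genes, edgeR, leave-one-out) and the second surrogate variable, were chosen after seeing the data. The length trend itself, as the p300-ifKO minus control difference of the members' predicted ratio, was 0.095 on exonic length, 0.101 on the principal transcript and 0.219 on protein-coding genes alone.

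Among the named members no direction changed under another test, size factor, filter or the block. With the surrogate variable the log2 fold change turned to -0.0034 for Rplp1, -0.019 for Rps15, -0.059 for Rpl4, -0.0037 for Rpl3l, -0.11 for Rps19bp1, -0.060 for Rps27, -0.029 for Rplp0, -0.034 for Rpl22l1, -0.075 for Rpl3, -0.10 for Rpl36a, -0.31 for Rpl36al, -0.10 for Rps4x, -0.033 for Rps14, -0.13 for Rpl11, -0.099 for Rps19, -0.043 for Rpsa and -0.59 for Rps27rt. Offsets turned Rps15a to 0.079 (exonic length) and 0.16 (principal transcript), Rpl3 to -0.0034 and -0.085, and Rpl36a to -0.015 on exonic length. The offsets of Rps15a rest on an unusually long annotated transcript. Offsets from protein-coding genes turned Rps15a to 0.15, Rpl3 to -0.12, Rpl36a to -0.18, Rps27 to -0.14, Rpl11 to -0.020 and Rpl36al to -0.014. Added pseudogene counts turned Rps10 to 0.0079. The causes were not tested.

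Leaving out 1 library turned 11 named members, 10 of them without p300-ifKO 1. The range was Rpl5 from -0.18 to 0.046, Rpl9 from -0.29 to 0.0065, Rpl3l from -0.0018 to 0.62, Rps19bp1 from -0.023 to 0.53, Rps27 from -0.029 to 0.34, Rpl3 from -0.074 to 0.15, Rpl36a from -0.078 to 0.13, Rpl36al from -0.088 to 0.67, Rps4x from -0.038 to 0.40, Rpl11 from -0.016 to 0.46 and Rps27rt from -0.40 to 0.94.

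An exact search for copies across the whole genome was not run, so copies outside annotated genes are not counted. The median standard error of 0.26, which holds the spread between libraries of a group, limits what could be called for a single member, and members with under 100 counts in total are limited further by depth.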
